A study of Homo sapiens with 12 samples.

Results

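The 30 genes examined here belong to cholesterol synthesis and sterol sensing, and they were chosen by name from the known pathway, by a rule that used no measured value but was written with earlier results of these data known. All 30 were found among the 54127 gene rows of the count files, and all 30 were among the 14505 genes with enough reads to be tested. Their transcripts were counted by RNAseq of C4-2, a prostate cancer line that descends from LNCaP and responds to androgen, grown in RPMI medium with serum. Cells received the vehicle DMSO or 1 µM of PBKi, which blocks the kinase PBK and is also called HI-TOPK-032 (TOPK32 in the labels), for 6 h, with 6 libraries in each group. All cells were of the same line with no other treatment stated, and no source says whether replicates were separate cultures, so p-values measure the spread between these libraries, which may be technical.

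Cells build cholesterol from acetyl-CoA through mevalonate and isoprenoid units to squalene, which is folded into lanosterol and then trimmed, reduced and isomerised to cholesterol. Supply is sensed in the endoplasmic reticulum, where the escort protein SCAP carries the SREBP transcription factors to the Golgi for activation when sterol is scarce, and where the INSIG proteins hold SCAP back when sterol is plentiful. Oxysterols, made when cholesterol accumulates, activate the nuclear receptors LXRα and LXRβ, which induce cholesterol export pumps and SREBF1. Prostate epithelium has an active lipid metabolism that androgen signalling is known to raise through SREBP and SCAP.

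The libraries held 9663203 to 28029908 reads on genes in DMSO and 13122415 to 22817803 in PBKi. The share of reads that fell outside genes ran from 5.74% to 6.96% for DMSO libraries. For PBKi it ran from 5.94% to 9.30%, and replicates 3 and 6 had the most. DMSO replicate 5, the least deep library, stood apart. It was the highest DMSO library for 14 of the 30 genes and the lowest for 10. The 4 epithelial marker genes summed to 883 to 1025 CPM in DMSO and 893 to 1004 CPM in PBKi, where CPM is the number of reads normalised for library depth. The 6 luminal prostate markers were all detected, and their sum was lower in PBKi (2162 to 2956 CPM) than in DMSO (4322 to 5221 CPM). Of these 6, 4 fell, 1 rose and 1 was not called. The part of this change in the sterol results was not tested, and in bulk RNA a smaller number of cells of a type and less RNA per cell cannot be told apart. The 5 fibroblast markers summed to 21.2 to 26.1 CPM in DMSO and 19.1 to 24.7 CPM in PBKi, and the 2 endothelial markers found to 4.03 to 7.25 and 3.09 to 4.63 CPM. The 4 leukocyte markers summed to at most 0.47 CPM and the 3 hepatocyte markers to at most 0.38 CPM in any library.

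The 30 sterol genes did not move as a block. In PBKi, 12 of the 30 (40%) were called at an adjusted p under 0.05, beside 41.7% of all genes tested, so the share of sterol genes called was near the background. SC5D, TM7SF2, NR1H2 and ABCA1 were upregulated (4 of 30, 13.3%, beside 20.1% of all genes called higher). INSIG1, SREBF1, ABCG1, INSIG2, MYLIP, EBP, FDFT1 and SQLE were downregulated (8 of 30, 26.7%, beside 21.5% of all genes called lower). The median log2 fold change of the 30 was -0.09, beside -0.01 over all genes tested. Changes were small, with a median absolute log2 fold change of 0.12 beside 0.19 over all genes, and INSIG1 and ABCA1 alone of the 30 passed 0.5. The 6 DMSO and 6 PBKi values did not overlap for INSIG1, SREBF1, MYLIP, SC5D, SQLE and FDFT1 (6 of 30), beside 20.1% of all genes. All tests were of the 12 libraries by edgeR's quasi-likelihood method with Benjamini-Hochberg adjustment over all 14505 genes, unless another test is named.

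Leaving out DMSO replicate 5 raised the sterol genes called higher from 4 to 7 and those called lower from 8 to 9, beside 44.8% of 14762 genes called in either direction. The added genes were DHCR7 (log2 fold change 0.20, adjusted p = 0.00205), LSS (0.16, adjusted p = 0.0128), NSDHL (0.13, adjusted p = 0.0467) and IDI1 (-0.23, adjusted p = 0.0147). Leaving out PBKi replicates 3 and 6 left 3 called higher and 4 called lower, and calls over all genes fell too, from 2921 to 2306 higher and from 3125 to 2076 lower. INSIG1, SREBF1, ABCG1 and MYLIP were the 4 still called lower, and SC5D, TM7SF2 and NR1H2 the 3 still called higher.

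**Figure D1:**
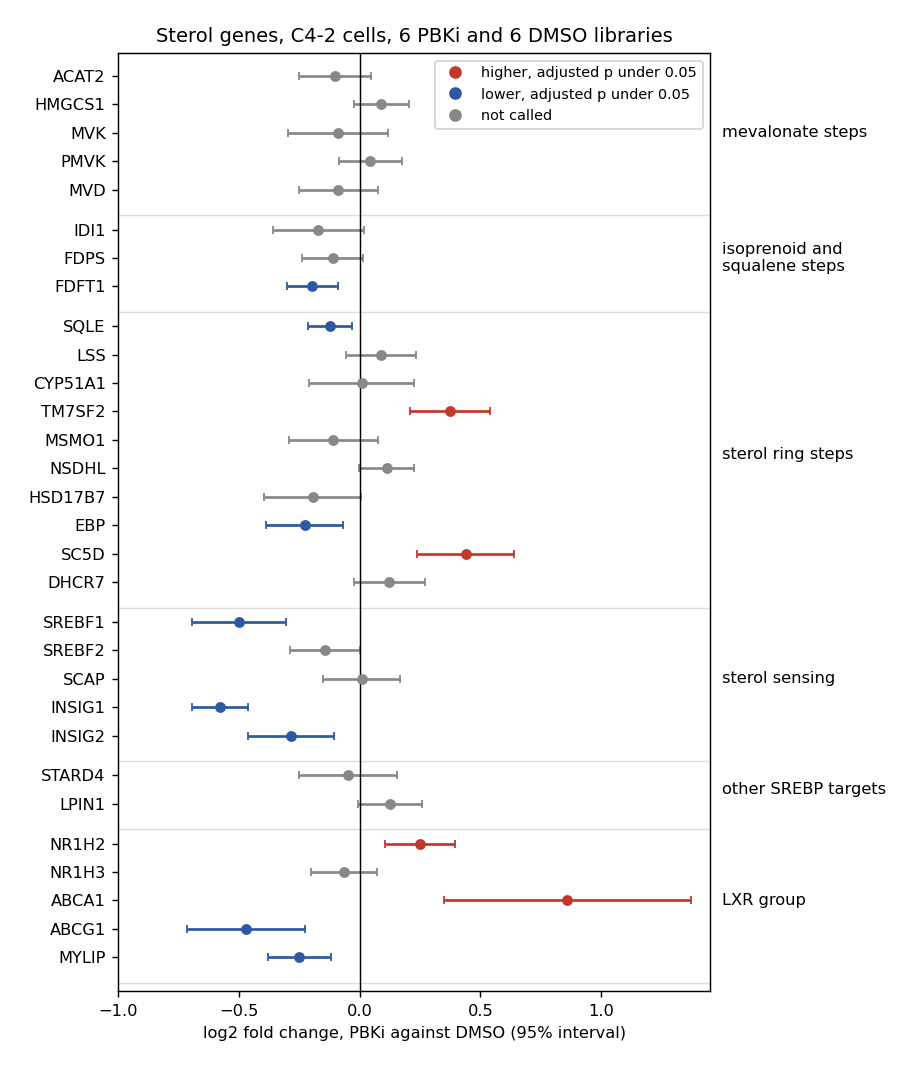
Log2 fold change of PBKi against DMSO for the 30 sterol genes, by role, with 95% intervals from 6 libraries a group. Red marks the 4 genes called higher, blue the 8 called lower and grey the 18 not called, and the mevalonate steps are all grey.

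Of the 5 sensing genes, INSIG1, SREBF1 and INSIG2 were downregulated and none was called higher, beside 21.5% of all genes called lower and 20.1% higher. Their median log2 fold change was -0.28, beside -0.01 over all genes, and the call of INSIG2 was lost without PBKi replicates 3 and 6. INSIG1 (ENSG00000186480, chromosome 7 of GRCh37, 155089486 to 155101945, plus strand) encodes the retention protein that SREBP itself induces. Its DMSO libraries ran from 516 to 612 CPM with a median of 582 CPM. Its PBKi libraries ran from 349 to 405 CPM with a median of 385 CPM. Every PBKi library lay well below every DMSO library. INSIG1 fell by 33.0%, a log2 fold change of -0.58 ± 0.055 (SE, 6 against 6 libraries, adjusted p = 2.56e-07), and a two-sided exact permutation test of its log2 CPM gave p = 0.00216, the smallest that 6 against 6 allows.

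SREBF1 (ENSG00000072310, chromosome 17, 17713713 to 17740316, minus strand) encodes SREBP-1, the SREBP most tied to fatty acid synthesis. Its level was 616 to 866 CPM in DMSO with a median of 670 CPM, and 390.5 to 558 CPM in PBKi with a median of 503 CPM. The groups did not overlap, and the highest value, 866 CPM, was that of DMSO replicate 5. The log2 fold change was -0.50 ± 0.092 (SE, adjusted p = 3.26e-04), and -0.42 (adjusted p = 4.19e-04) without that library. SREBF2 (ENSG00000198911, chromosome 22, 42229109 to 42303310, plus strand) encodes SREBP-2, the main driver of cholesterol synthesis genes. It lay at 240.3 to 326 CPM in DMSO (median 273) and 237 to 268 CPM in PBKi (median 248), so the ranges overlapped, and PBKi replicates 1 and 3 lay just below the lowest DMSO library. Its log2 fold change of -0.14 ± 0.069 (SE) did not pass the test (adjusted p = 0.102), with a 95% interval from -18.2% to 0.061%. SREBF2 was called lower when the set of replicates (1 to 3, or 4 to 6) was a term of the fit (adjusted p = 0.0144) and without DMSO replicate 3 (adjusted p = 0.0372), so its call depended on the fit.

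INSIG2 (ENSG00000125629, chromosome 2, 118846028 to 118868573, plus strand), which holds SCAP as INSIG1 does but is known for less dependence on SREBP, was 28.8 to 41.0 CPM in DMSO with a median of 37.0 CPM. It was 26.3 to 33.9 CPM in PBKi with a median of 29.6 CPM. The ranges overlapped, with PBKi libraries towards the lower end. The log2 fold change was -0.28 ± 0.086 (SE, adjusted p = 0.0128), and -0.25 (adjusted p = 0.0713) without PBKi replicates 3 and 6. SCAP, the escort and sterol sensor, had a log2 fold change of 0.01 ± 0.075 (SE, adjusted p = 0.946).

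The 200 bases upstream of the transcription start are shown for INSIG1, SREBF1 and SREBF2, to set the promoters of the sensing genes side by side. They are RefSeq promoters of GRCh38.p14, read 5′ to 3′ on the strand of the gene, and the last base is position -1. Where a gene has several promoters, only the first listed is shown, so a window does not cover other starts of the gene. Capitals mark 3 motifs on either strand. CCAAT is known to be bound by the factor NF-Y. CACGTG is an E-box, which SREBP can bind. TCACNCCAC is the core of the sterol regulatory element, the other SREBP site.
INSIG1 (chr7:155297678-155297877, plus strand): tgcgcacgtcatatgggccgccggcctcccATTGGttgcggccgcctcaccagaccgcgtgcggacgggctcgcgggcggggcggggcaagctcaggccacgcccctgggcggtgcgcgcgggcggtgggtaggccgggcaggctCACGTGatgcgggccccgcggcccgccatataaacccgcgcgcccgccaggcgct
SREBF1 (chr17:17836987-17837186, minus strand): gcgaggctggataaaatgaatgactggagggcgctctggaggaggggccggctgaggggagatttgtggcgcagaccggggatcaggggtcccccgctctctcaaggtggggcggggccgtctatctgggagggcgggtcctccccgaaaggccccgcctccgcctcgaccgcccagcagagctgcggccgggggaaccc
SREBF2 (chr22:41832905-41833104, plus strand): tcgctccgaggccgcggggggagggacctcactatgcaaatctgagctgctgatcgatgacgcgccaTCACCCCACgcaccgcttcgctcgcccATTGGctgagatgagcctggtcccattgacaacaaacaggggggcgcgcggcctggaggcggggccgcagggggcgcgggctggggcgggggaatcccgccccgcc
The INSIG1 window held CCAAT from -170 and CACGTG from -55. SREBF2 held the sterol regulatory element letters from -133 and CCAAT from -106, and the SREBF1 window held none of these 3 motifs.

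Each SREBF gene also carries a microRNA in an intron on its own strand, MIR33B in SREBF1 (chromosome 17 of GRCh37, 17717150 to 17717245) and MIR33A in SREBF2 (chromosome 22, 42296948 to 42297016). Their mature forms, known for targeting the export pump ABCA1, are shown because they share the seed, bases 2 to 8, in capitals.
hsa-miR-33b-5p: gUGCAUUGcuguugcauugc
hsa-miR-33a-5p: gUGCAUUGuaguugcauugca
The libraries were of messenger RNA and do not measure mature microRNAs. The MIR33B row held 6 reads in all 12 libraries together and the MIR33A row held 0.

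The 18 enzymes of synthesis changed little and in both directions. SC5D and TM7SF2 were upregulated (2 of 18, 11.1%, beside 20.1% of all genes tested). FDFT1, EBP and SQLE were downregulated (3 of 18, 16.7%, beside 21.5% of all genes tested), and 13 were not called. The 95% intervals of those 13 lay between -24.0% and 20.5%, and their log2 fold changes between -0.20 and 0.12, 7 of them below 0. None of the 5 mevalonate genes (ACAT2, HMGCS1, MVK, PMVK and MVD) was called, with log2 fold changes from -0.10 to 0.09. HMGCS1, which makes HMG-CoA and is a standard SREBP-2 target, had a log2 fold change of 0.09 ± 0.054 (SE, adjusted p = 0.196). Its libraries ran from 128 to 156 CPM in DMSO and from 143 to 165 CPM in PBKi, with medians of 145 and 152 CPM.

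The kinases MVK and PMVK, which phosphorylate mevalonate in turn, and the decarboxylase MVD, which makes isopentenyl diphosphate, showed the same lack of separation. MVK was 12.6 to 19.3 CPM in DMSO and 13.6 to 16.7 CPM in PBKi. PMVK was 39.7 to 49.9 CPM in DMSO and 42.1 to 46.7 CPM in PBKi. MVD was 16.1 to 21.2 CPM in DMSO and 16.1 to 18.2 CPM in PBKi. In each of these 3 genes the PBKi range lay inside the DMSO range, apart from the lowest MVD value in PBKi, 16.10 against 16.11 CPM. ACAT2, the cytosolic thiolase of the first step, was 46.3 to 58.1 CPM in DMSO and 42.3 to 51.8 CPM in PBKi (log2 fold change -0.10 ± 0.070 SE, adjusted p = 0.255), and TCP1 exons on the other strand cover 17.2% of its exon length.

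In the isoprenoid steps, IDI1 and FDPS, which make the building blocks of squalene, had log2 fold changes of -0.17 ± 0.089 (SE, adjusted p = 0.134) and -0.11 ± 0.060 (SE, adjusted p = 0.144). IDI1 was called lower with the same term for the replicate sets (adjusted p = 0.0219). IDI1 was 103 to 154 CPM in DMSO and 107 to 131 CPM in PBKi, and FDPS 66.5 to 82.3 CPM in DMSO and 64.9 to 76.9 CPM in PBKi. FDPS has 8 named pseudogenes and IDI1 has 3, and among the ring genes CYP51A1 has 3 and HSD17B7 has 2. Reads that map equally well to a gene and its copy are not counted by HTSeq, so the levels of these genes may be understated. Exons of RUSC1-AS1 on the other strand cover 18.6% of the FDPS exon length, and those of IDI2-AS1 cover 15.0% of that of IDI1. FDFT1 (ENSG00000079459), squalene synthase, commits isoprenoids to sterols. It was 518 to 594 CPM in DMSO with a median of 540.2 CPM, and 453 to 504 CPM in PBKi with a median of 479 CPM. No PBKi library reached the lowest DMSO library. FDFT1 fell by 12.7%, a log2 fold change of -0.20 ± 0.051 (SE, adjusted p = 0.00482), and the value was -0.17 (adjusted p = 0.0515) without PBKi replicates 3 and 6.

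Of the 10 genes that make and remodel the sterol ring, 2 rose (20%), 2 fell (20%) and 6 were not called, with a median log2 fold change of 0.05. These shares were near the background of 20.1% of all genes called higher and 21.5% lower. SC5D (ENSG00000109929, chromosome 11, 121163390 to 121184119, plus strand), the sterol C5-desaturase near the end of the pathway, was 85.1 to 119.6 CPM in DMSO with a median of 105 CPM. It was 122 to 176 CPM in PBKi with a median of 136 CPM. The groups did not overlap, and PBKi replicates 1 to 3 held the 3 highest values. SC5D rose by 35.5%, a log2 fold change of 0.44 ± 0.095 (SE, adjusted p = 0.00131), the highest of the 18 enzymes.

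TM7SF2 (ENSG00000149809, chromosome 11, 64879317 to 64883856, plus strand), a sterol C14-reductase, was 37.4 to 51.6 CPM in DMSO (median 38.9) and 50.1 to 61.7 CPM in PBKi (median 51.9). The ranges met only through DMSO replicate 5, the 51.6 CPM. Its log2 fold change was 0.37 ± 0.079 (SE, adjusted p = 0.00108). LBR, a nuclear envelope protein with the same C14-reductase activity, is not among the 30 genes and went the other way, from 239 to 274 CPM in DMSO (median 251) to 164 to 189 CPM in PBKi (median 172), a log2 fold change of -0.54 ± 0.052 (SE, adjusted p = 2.71e-07).

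EBP (ENSG00000147155, chromosome X, 48380187 to 48387104, plus strand), the sterol isomerase, was 117 to 158 CPM in DMSO with a median of 148 CPM and 108 to 138 CPM in PBKi with a median of 121 CPM. Its groups overlapped, and the log2 fold change was -0.23 ± 0.076 (SE, adjusted p = 0.0219). EBP was not called without DMSO replicate 1 (adjusted p = 0.0544), PBKi replicate 3 (adjusted p = 0.0513) or PBKi replicate 6 (adjusted p = 0.0601). SQLE (ENSG00000104549), squalene epoxidase, a rate-limiting enzyme of the later pathway, was 77.0 to 81.7 CPM in DMSO (median 79.5) and 71.5 to 76.5 CPM in PBKi (median 72.3). The groups were narrow and did not overlap, but the log2 fold change was only -0.12 ± 0.043 (SE, adjusted p = 0.0274), and the call was lost in 8 of the 12 fits with 1 library omitted. 

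The other 6 ring genes were not called, with log2 fold changes from -0.20 for HSD17B7 to 0.12 for DHCR7. LSS, which folds epoxidised squalene into lanosterol, was 67.2 to 94.99 CPM in DMSO and 77.5 to 86.8 CPM in PBKi. CYP51A1, which removes the C14 methyl group of lanosterol, was 8.10 to 13.3 CPM in DMSO and 8.78 to 11.2 CPM in PBKi. DHCR7, which yields cholesterol in the last step of one branch, was 151 to 209.9 CPM in DMSO and 172 to 195 CPM in PBKi. In all of these the PBKi range lay inside the DMSO range, and the top of the DMSO range for LSS and DHCR7 was replicate 5.

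MSMO1, NSDHL and HSD17B7 act in turn to remove the C4 methyl groups. MSMO1 was 68.5 to 101 CPM in DMSO and 73.2 to 91.7 CPM in PBKi (log2 fold change -0.11 ± 0.088 SE, adjusted p = 0.340). NSDHL was 36.8 to 42.4 CPM in DMSO and 39.6 to 46.3 CPM in PBKi (log2 fold change 0.11 ± 0.054 SE, adjusted p = 0.111). HSD17B7 was 9.52 to 12.6 CPM in DMSO and 8.49 to 11.9 CPM in PBKi (log2 fold change -0.20 ± 0.095 SE, adjusted p = 0.109). The 3 steps thus gave no call in either direction in the main fit. Among the alternatives run, HSD17B7 was called lower only without PBKi replicate 1 (adjusted p = 0.0415). MSMO1 was called lower in replicates 1 to 3 alone (adjusted p = 0.0462). NSDHL was called higher with a filter of at least 50 counts (adjusted p = 0.0498) and without DMSO replicate 5 (adjusted p = 0.0467).

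The upstream windows of SC5D, which rose, EBP, which fell, and NSDHL, which was not called, are shown with the same capitals, because CCAAT letters occur in all of them.
SC5D (chr11:121292571-121292770, plus strand): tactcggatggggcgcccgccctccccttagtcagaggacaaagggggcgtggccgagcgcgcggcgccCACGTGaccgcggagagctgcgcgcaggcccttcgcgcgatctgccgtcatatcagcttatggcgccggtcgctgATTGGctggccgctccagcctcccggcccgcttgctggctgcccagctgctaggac
EBP (chrX:48521608-48521807, plus strand): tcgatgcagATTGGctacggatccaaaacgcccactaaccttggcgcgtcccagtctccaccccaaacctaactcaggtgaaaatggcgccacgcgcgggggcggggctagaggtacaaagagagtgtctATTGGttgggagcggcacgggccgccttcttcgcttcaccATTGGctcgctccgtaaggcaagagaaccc
NSDHL (chrX:152830863-152831062, plus strand): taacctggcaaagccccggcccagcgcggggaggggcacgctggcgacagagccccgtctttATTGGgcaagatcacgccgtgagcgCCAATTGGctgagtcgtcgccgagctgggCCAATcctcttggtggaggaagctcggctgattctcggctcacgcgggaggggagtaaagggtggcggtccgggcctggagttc
SC5D held CCAAT from -56 and CACGTG from -131, EBP held CCAAT from -191, -70 and -30, and NSDHL held CCAAT from -138, -113, -110 and -84, the pair at -113 and -110 overlapping.

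RefSeq promoters of 300 bases (250 before the start and 50 after) were found for 26 of the 30 genes, 37 promoters in all, but not for ABCG1, ACAT2, FDFT1 and SQLE. CCAAT, searched on both strands, was in 20 of the 37 (54.1%), beside 34.6% of 35116 promoters. CACGTG was in 6 of the 37 (16.2%), beside 7.26%, and GGGCGG (a GC box) in 32 (86.5%), beside 45.0%. TCACNCCAC was in 1 (2.70%), that of SREBF2, beside 1.13%. The 35116 promoters were not limited to genes tested here, and some sterol genes gave several promoters, so the shares are not of like sets. A match is a run of letters and not a measured binding site.

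STARD4, which carries cholesterol between membranes, and LPIN1, a phosphatidate phosphatase, are SREBP targets outside synthesis. Neither was called, with log2 fold changes of -0.05 ± 0.096 (SE, adjusted p = 0.717) and 0.12 ± 0.063 (SE, adjusted p = 0.1203).

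**Figure D2:**
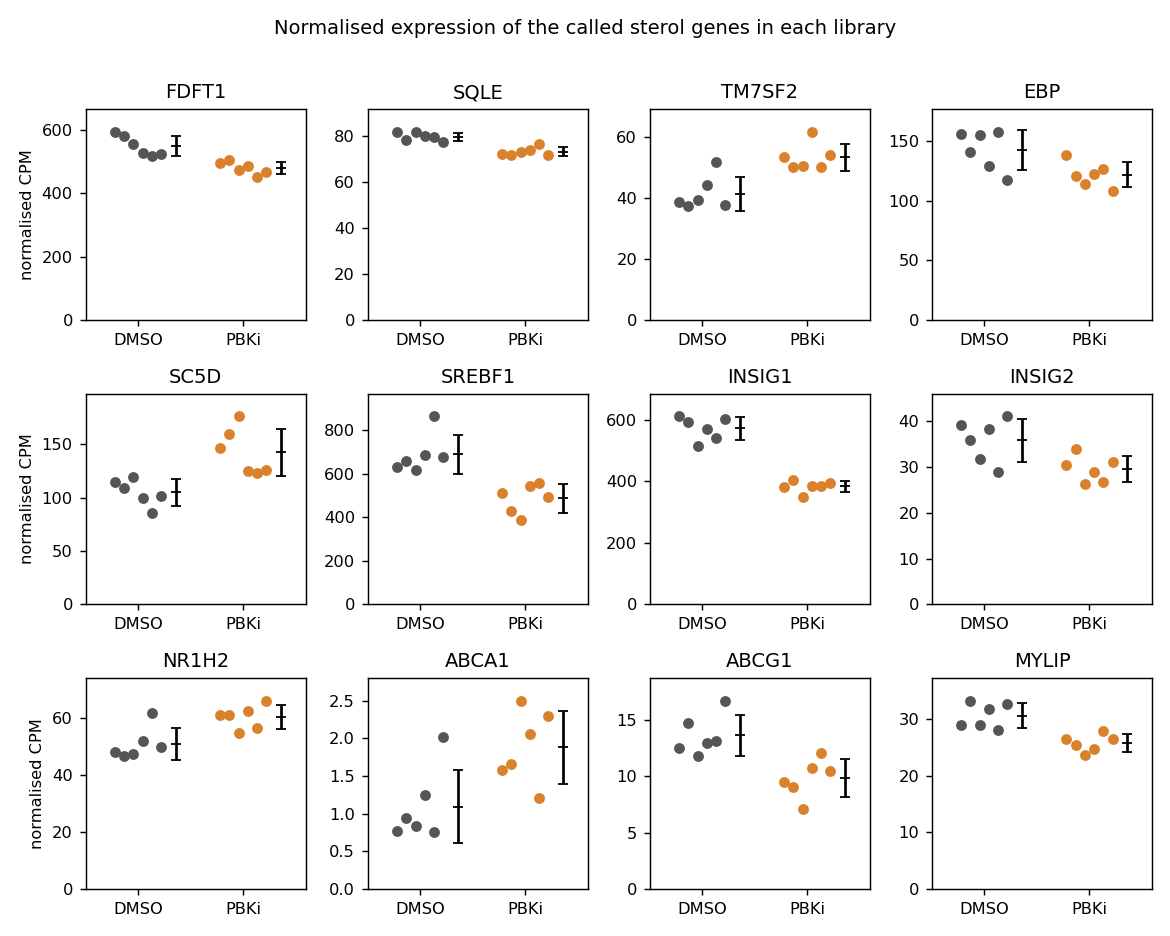
Normalised CPM of the 12 called sterol genes in each of the 6 DMSO (grey) and 6 PBKi (orange) libraries, replicates 1 to 6 from left to right, with the mean and SD beside them on axes that start at 0. INSIG1 and SREBF1 show separate groups, whereas ABCA1 lies between 0.757 and 2.50 CPM with overlapping groups.

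The LXR group moved in both directions. Of its 5 genes, 2 (40%) were upregulated and 2 (40%) downregulated, beside 20.1% and 21.5% of all genes tested, and NR1H3 was not called. NR1H2 (ENSG00000131408, chromosome 19, 50832910 to 50886645, plus strand), which encodes LXRβ, was 46.6 to 61.5 CPM in DMSO with a median of 48.9 CPM. It was 54.5 to 66.0 CPM in PBKi with a median of 60.8 CPM. The overlap came from DMSO replicate 5 alone, which held the 61.5 CPM. The log2 fold change was 0.25 ± 0.069 (SE, adjusted p = 0.00767), and 0.31 (adjusted p = 2.54e-04) without that library. Exons of NAPSA on the other strand cover 22.1% of the NR1H2 exon length, and the strand setting of the counts is not given in the sources used here. NR1H3, LXRα, was 20.1 to 24.7 CPM in DMSO (median 21.7) and 19.6 to 23.7 CPM in PBKi (median 20.8), with a log2 fold change of -0.07 ± 0.065 (SE, adjusted p = 0.434).

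The LXR targets did not move together. ABCA1 (ENSG00000165029, chromosome 9, 107543287 to 107690436, minus strand), which exports cholesterol to lipid-poor apolipoprotein, was the least expressed of the 30 genes with 7 to 59 reads in a library. It was 0.757 to 2.01 CPM in DMSO with a median of 0.885 CPM and 1.21 to 2.50 CPM in PBKi with a median of 1.86 CPM. The groups overlapped through DMSO replicates 4 and 6 and PBKi replicates 1, 2 and 5. Its log2 fold change of 0.86 ± 0.24 (SE, adjusted p = 0.00861) was the highest of the 30, with a wide 95% interval from 27.4% to 159%. It was 0.66 (adjusted p = 0.0687) without PBKi replicates 3 and 6.

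ABCG1 (ENSG00000160179, chromosome 21, 43619799 to 43717354, plus strand), which passes cholesterol to high-density lipoprotein, was 11.8 to 16.7 CPM in DMSO with a median of 13.0 CPM. It was 7.12 to 12.01 CPM in PBKi with a median of 9.94 CPM. The ranges overlapped only by the highest PBKi and the lowest DMSO library. The log2 fold change was -0.47 ± 0.115 (SE, adjusted p = 0.00338). MYLIP (ENSG00000007944, chromosome 6, 16129317 to 16148479, plus strand), a ubiquitin ligase induced by LXR that removes lipoprotein receptors, was 28.1 to 33.3 CPM in DMSO (median 30.5) and 23.6 to 28.0 CPM in PBKi (median 26.0). Its groups did not overlap, and the log2 fold change was -0.25 ± 0.063 (SE, adjusted p = 0.00400).

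Since separate calls do not show that related genes moved unequally, the log2 ratio of each of 4 pairs was taken within each library and compared by a two-sided exact permutation test, with adjustment over the 4 pairs. The ratio of INSIG1 to INSIG2 was 4.00 ± 0.13 (SD, n = 6) in DMSO and 3.70 ± 0.095 (SD, n = 6) in PBKi, a difference of -0.30 (exact adjusted p = 0.00289). INSIG1 thus fell further than INSIG2. The ratio of SREBF1 to SREBF2 was 1.32 ± 0.076 (SD, n = 6) in DMSO and 0.95 ± 0.16 (SD, n = 6) in PBKi, a difference of -0.36 (exact adjusted p = 0.00289), with SREBF1 falling against SREBF2. The ratio of NR1H3 to NR1H2 was -1.20 ± 0.11 (SD, n = 6) in DMSO and -1.51 ± 0.15 (SD, n = 6) in PBKi, a difference of -0.31 (exact adjusted p = 0.00289). In these 3 pairs the groups did not overlap, but no share was taken over other pairs of genes. Of single genes tested, 20.1% did not overlap. The ratio of ABCA1 to ABCG1 was -3.57 ± 0.37 (SD, n = 6) in DMSO and -2.33 ± 0.56 (SD, n = 6) in PBKi, a difference of 1.24 (exact adjusted p = 0.00433), and PBKi replicate 5, at -3.19, fell inside the DMSO range.

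**Figure D3:**
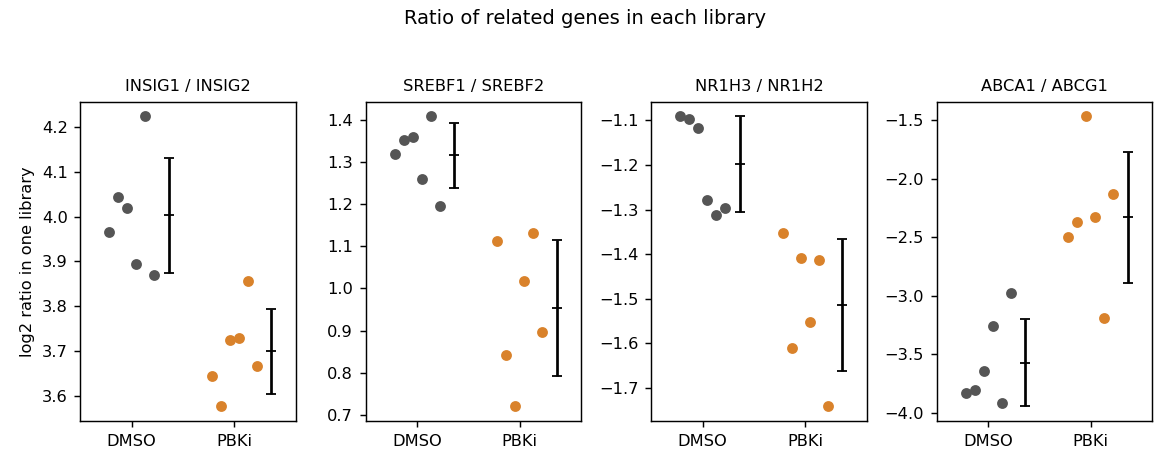
Log2 ratio of 4 pairs of related genes within each library, DMSO in grey and PBKi in orange, with the mean and SD of 6 beside the points and replicates 1 to 6 from left to right. The groups are apart for the first 3 pairs, lower in PBKi, and overlap for ABCA1 against ABCG1, where the mean rose by 1.24.

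Per kilobase of exon the 30 genes spanned a wide range. INSIG1 was highest at 157 ± 10.3 RPKM (SD, n = 6) in DMSO, where RPKM is the CPM divided by the exon length in kilobases. FDFT1 followed at 108 ± 6.27 RPKM, then SREBF1 at 83.8 ± 10.95 RPKM and EBP at 80.6 ± 9.32 RPKM, which differed by less than their SD. SREBF2 stood at 34.4 ± 3.97 RPKM and ABCA1 lowest at 0.096 ± 0.043 RPKM. In PBKi, INSIG1 was at 105 ± 5.21 RPKM and FDFT1 at 94.4 ± 3.69 RPKM.

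**Figure D4:**
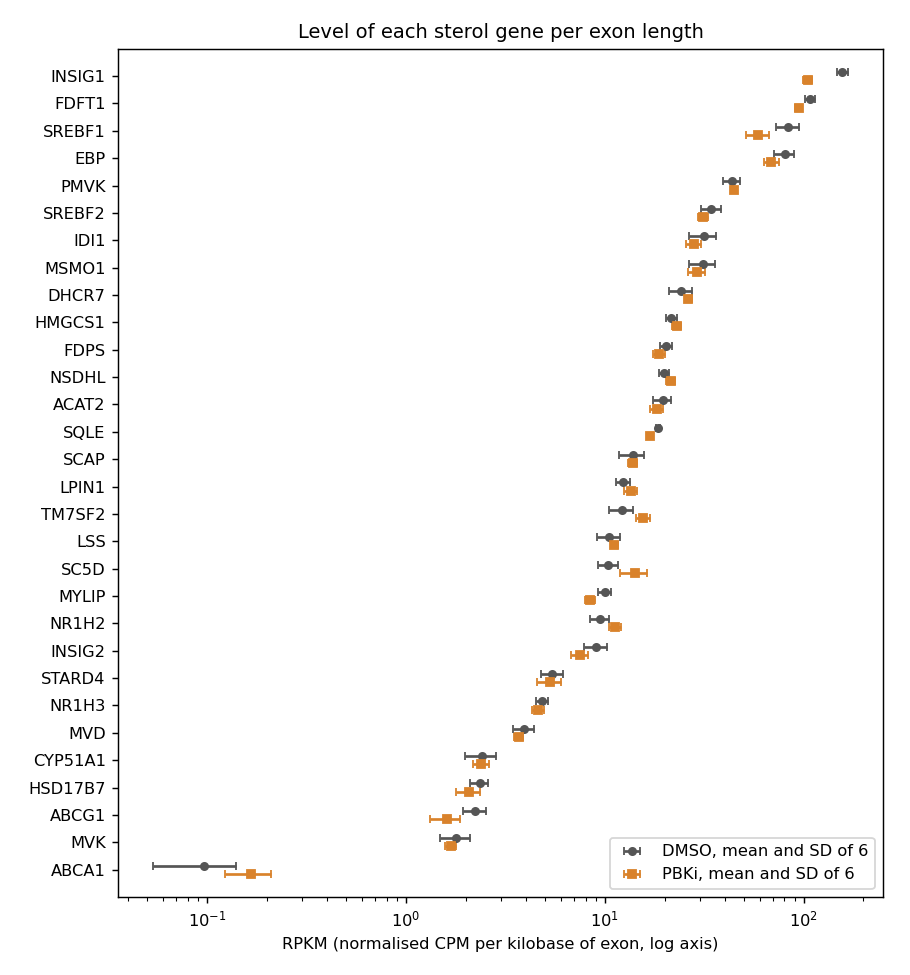
Level of each of the 30 sterol genes in DMSO (grey circles) and PBKi (orange squares) as RPKM (CPM per kilobase of exon) on a log axis, mean and SD of 6 libraries. INSIG1 is highest at 157 in DMSO and ABCA1 lowest at 0.096.

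Of 34 other genes of sterol handling, 33 were tested, and 8 were called higher and 4 lower (24.2% and 12.1%, beside 20.1% and 21.5% of all genes tested), with a median log2 fold change of -0.04. The 3 highest rises were NPC2, which binds cholesterol inside lysosomes (0.53 ± 0.061 SE, adjusted p = 2.66e-06), ERLIN2, an endoplasmic reticulum protein that takes part in sterol-regulated degradation (0.35 ± 0.050 SE, adjusted p = 3.01e-05), and RNF145, a ubiquitin ligase of the same membrane (0.34 ± 0.056 SE, adjusted p = 1.07e-04). NPC2 went from 42.5 to 51.8 CPM in DMSO to 62.6 to 74.0 CPM in PBKi without overlap. The 3 largest falls were LBR, given above, NFYB, a histone-fold subunit of the NF-Y trimer (-0.41 ± 0.070 SE, adjusted p = 1.51e-04), and LRP8, a lipoprotein receptor (-0.36 ± 0.053 SE, adjusted p = 3.58e-05). NFYB was 38.7 to 49.4 CPM in DMSO and 30.8 to 39.3 CPM in PBKi, which just overlapped. The other NF-Y subunits, named here after their values were seen, were NFYC, which rose (0.13 ± 0.050 SE, adjusted p = 0.0390), and NFYA, which makes the contact with CCAAT and was not called (-0.10 ± 0.050 SE, adjusted p = 0.128). CYP27A1 had too few reads to be tested.

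Replicates 1 to 3 and replicates 4 to 6 differ in some values of these data, although no label says what sets them apart. In DMSO the log2 ratio of NR1H3 to NR1H2 was -1.12 to -1.09 in replicates 1 to 3 and -1.31 to -1.28 in replicates 4 to 6. In PBKi the sets overlapped, at -1.61 to -1.35 and -1.74 to -1.41. All 12 genes called over the 12 libraries had the same direction in both sets, but the sets are parts of those 12 libraries. That agreement is therefore largely fixed by the choice of genes and is not a check of repetition. The INSIG1 log2 fold change was -0.59 in replicates 1 to 3 (adjusted p = 1.63e-05) and -0.55 in replicates 4 to 6 (adjusted p = 2.66e-04). SREBF1 gave -0.51 and -0.48 (adjusted p = 1.52e-04 and 0.00526), and SC5D 0.50 and 0.38 (adjusted p = 2.78e-05 and 0.00683). These 3 were the sterol genes called within both sets, and the share of all genes called within both sets was not taken. Replicates 1 to 3 alone gave 3376 genes higher and 3184 lower of all tested, and replicates 4 to 6 alone 1303 and 1216. HMGCS1, LSS, DHCR7 and LPIN1 (higher) and IDI1 and MSMO1 (lower) were called in replicates 1 to 3 but not over the 12 libraries. ABCA1 gave 1.25 in replicates 1 to 3 and 0.44 in replicates 4 to 6 (adjusted p = 0.00175 and 0.418). The difference of the effect between the sets, tested by edgeR's quasi-likelihood method, passed for 0 of the 14505 genes, with 700 at an unadjusted p under 0.05 and none of the 30 sterol genes among them.

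**Figure D5:**
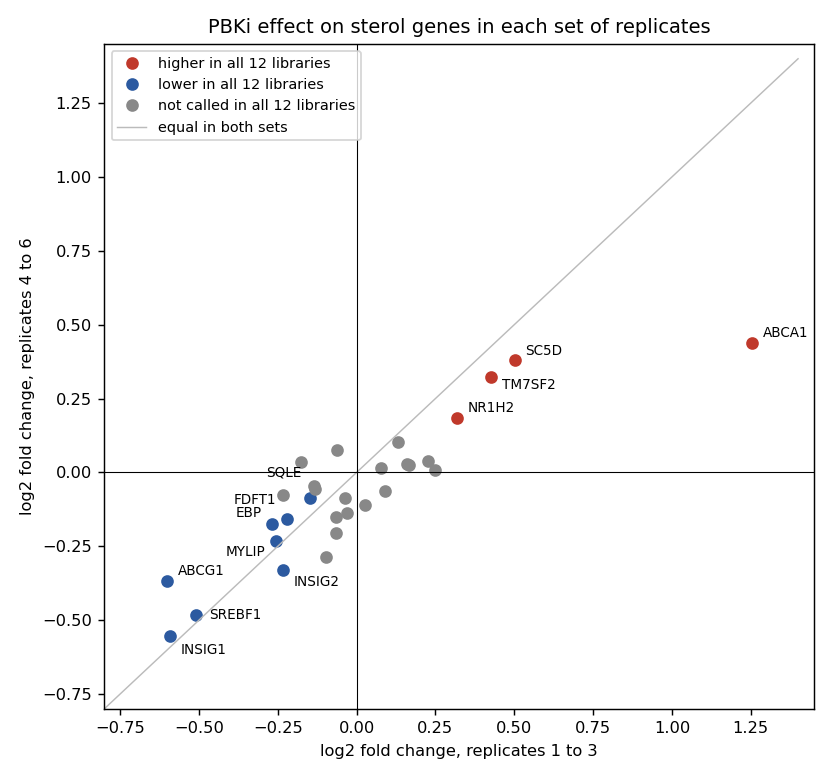
Log2 fold change of PBKi against DMSO for the 30 sterol genes in replicates 1 to 3 (horizontal) and replicates 4 to 6 (vertical), coloured by the call over all 12 libraries, with the line of equal change. The 8 genes called lower lie below 0 in both sets and the 4 called higher above 0, with ABCA1 at 1.25 and 0.44. The sets are parts of the libraries that gave the calls.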

How the data were processed

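Messenger RNA libraries made from total RNA of C4-2 cells, 12 in all, were sequenced as single-end reads, aligned by the authors to GRCh37 with TopHat 2.0.4 and counted per gene with HTSeq 0.5.3p9 (the study tested with DESeq 1.10.1). The deposited values are whole-number counts without normalisation, in 47 lane files. Lanes were summed, 4 per library and 3 for DMSO replicate 5, since repeat lanes agreed within sampling noise (chi-square over its degrees of freedom from 0.990 to 1.02, and 4.02 to 24.5 for different libraries of a group). Depth was 9663203 to 28029908 reads, so precision is lowest for genes with few reads. Groups and replicate numbers came from the labels.

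A gene needed 10 counts or more in 6 or more libraries to be tested, by TMM scaling and edgeR's quasi-likelihood test in edgeR 4.0.16 (R 4.3.3), without covariates, and called at an adjusted p under 0.05. Intervals are 95%. Permutation tests covered the 924 splits of 12 libraries on a log2 CPM scale (prior count 2). RPKM and positions used GENCODE v44 exons lifted to GRCh37, newer than the annotation of the authors. The fit was tested on simulated data. The members and lists were chosen with earlier results of these data known. All 30 members are named, with values per group for called genes (up to 4 a role) and genes of a ratio, and from the other 34 genes the 3 largest rises and falls.

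Alternatives were RLE factors, DESeq2 1.42.0, limma-voom (limma 3.58.1), other count filters, lanes 6 to 8, a replicate block, replicate sets, a stricter threshold and leaving out each library. Leaving out PBKi replicates 3 and 6 was chosen after seeing the data. Some genes of the pathway are not reported here.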

Additional observations from a re-analysis of the deposited data

Results flagged for a closer look

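In 8 of 60 groups of 6 values (30 genes in DMSO and in PBKi), 1 library lay far from the others by the Dixon test, where chance gives about 1 in 20. DMSO replicate 5 was that library in 6 of the 8. It was above its group for LSS at 94.99 CPM (next 76.7), DHCR7 at 209.9 CPM (next 169), SREBF1 at 866 CPM (next 688), SCAP at 111 CPM (next 90.0) and NR1H2 at 61.5 CPM (next 51.7), and below it for STARD4 at 23.6 CPM (next 30.4). This library had 3 lanes and the fewest reads. The 14 genes for which it was the highest DMSO library had a median transcript GC content of 58.2%, and the 10 for which it was the lowest had 40.01%, beside 48.5% for all 30. The part of base composition in these values was not tested. TM7SF2 stood at 61.7 CPM in PBKi replicate 4 (next 53.9), and NR1H3 at 23.7 CPM in PBKi replicate 1 (next 21.1).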

How the results depend on the processing

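None of the 12 called genes, the 4 ratios or the median changed direction under any alternative run, all of which reused these libraries or part of them. RLE factors, DESeq2 and limma-voom each gave 4 sterol genes higher and 8 lower. Without a low count filter, 5 other sterol genes were called higher (8 with it), and 32 genes, no sterol gene among them, differed in effect between the replicate sets. Replicates 1 to 3 alone gave 8 sterol genes higher and 9 lower, beside 3376 genes higher and 3184 lower of all tested. Replicates 4 to 6 alone gave 1 sterol gene higher and 2 lower, 3 other sterol genes higher and 2 lower, and 1303 genes higher and 1216 lower of all tested. At an adjusted p under 0.01, 5 sterol genes were lower, 3 other sterol genes were higher, and 2073 of all genes were lower. Without PBKi replicates 3 and 6, 4 sterol genes and 2076 of all genes were lower. The cause was not tested, although the smaller sets have fewer libraries. With each library left out in turn, 4 to 7 sterol genes were higher (7 without DMSO replicate 5) and 6 to 9 lower, and their median log2 fold change was -0.12 to -0.06. The other sterol genes gave 6 to 8 higher and 3 to 5 lower, all genes 2579 to 3364 higher and 2618 to 3250 lower, and the 4 ratios kept their calls.

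Same-numbered libraries of both groups deviated together with correlations of 0.0887 to 0.299, and 4 of the 6 numbers correlated best with their own. A pairing by number is therefore possible, but no label states it. The main fit left the number out, and a replicate block was run beside it. With a replicate block, 4 sterol genes were higher and 10 lower, with SREBF2 (adjusted p = 0.0219) and IDI1 (adjusted p = 0.0331) added, and 3485 of all genes were higher and 3803 lower. A covariate for replicates 1 to 3 against 4 to 6 also gave 4 sterol genes higher and 10 lower, with SREBF2 (adjusted p = 0.0144) and IDI1 (adjusted p = 0.0219) added, and 3349 of all genes higher and 3696 lower. The 7 reads of ABCA1 in the least deep library set the limit of its precision.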
